A study of Mus musculus with 12 samples.

Results

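The genes described here build, load and control MHC class I, the surface complex that shows peptides from inside a cell to CD8 T cells and natural killer cells. They are 10 of the 56748 genes in the count table and are taken by name, with no measured value in the rule, although the list was drawn up when earlier results of these data were known: the heavy chains H2-K1, H2-D1 and H2-T23, the light chain B2m, the peptide transporter subunits Tap1 and Tap2, the loading factor Tapbp, the immunoproteasome subunits Psmb8 and Psmb9, and the transcriptional activator Nlrc5. All 10 passed the filter on low counts. RNA was sequenced from Ba/F3, a mouse pro-B cell line that normally needs interleukin-3 (IL-3) to live, and every group carried NRAS G12D, an active form of a RAS protein. The control cells received the fluorescent marker ZsGreen alone. The other cells received a construct that makes ZsGreen together with ETV6, an ETS-family transcriptional repressor, in its wild-type form (ETV6 WT), with the P214L change (P214L) or with both changes (I209S P214L). On day 0 the cells were sorted into medium lacking IL-3, and RNA was taken on day 3. Each of the 4 groups has 3 libraries. The stated aim was to learn whether I209S, which breaks a nuclear export sequence that P214L makes, returns the transcripts of P214L cells to the wild-type pattern. Nothing in the labels says that replicate libraries came from separate cultures, so the p-values measure the spread between these libraries, which may be technical.

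In the class I pathway, proteasomes cut cytosolic proteins into peptides, and cells exposed to interferon replace the standard catalytic subunits with immunoproteasome subunits. The TAP transporter carries the peptides into the endoplasmic reticulum, where tapasin (Tapbp) and its partner chaperones fit them into a heavy chain paired with beta-2 microglobulin. NLRC5 has no DNA-binding domain of its own and acts at class I promoters through factors bound to a conserved group of boxes (W/S, X1, X2 and Y), the last of which holds the letters CCAAT. Interferon response elements and a kB site stand upstream of these boxes in classical heavy chain promoters.

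The promoters of 8 members were in the RefSeq table used here (mouse build GRCm38.p6), and those of Nlrc5 and Tap2 were not used here. The motifs searched, on both strands of the 250 bases before the start, were chosen after these sequences had been seen. CCAAT was present upstream of 7 of the 8 members (all but Psmb8), against 33.8% of 32851 promoter windows of that length. The windows of H2-D1 and Tapbp hold 2 such sites each, of which the site nearer the start is shown. H2-K1 has more than 1 window. The line below is from the window with 1 site, and another holds 2, at 30 and 6 bases before its start. Whether a site shown is the Y box of its promoter was not tested. The lines below show 30 bases around 1 site each for the 3 heavy chains, Tap1 and Tapbp, as examples from 5 of the 7 genes. The letters are in capitals in these lines (CCAAT, or ATTGG where they read on the other strand). Each is written 5′ to 3′ along the gene's strand.
H2-K1 (chr17:34000346-34000375, minus strand): gctcttacccccATTGGgtggcgcgatcac
H2-D1 (chr17:35263029-35263058, plus strand): agattccaggagCCAATcagcgtcgccgcg
H2-T23 (chr17:36032736-36032765, minus strand): gttttctaaaagCCAATcagcgacgcagag
Tap1 (chr17:34187322-34187351, plus strand): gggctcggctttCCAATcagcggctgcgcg
Tapbp (chr17:33919301-33919330, plus strand): attaaaatatttATTGGtcacttcacttgg

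The X2-type letters TGACG, present in 17.8% of all windows, were found upstream of H2-K1, H2-D1, B2m, Tap1 and Psmb9. The interferon-type letters AANNGAAA, in 21.3% of windows, were found upstream of all 3 heavy chains and B2m, and the kB letters GGGATTCC, in 0.889% of windows, upstream of H2-K1 and H2-D1. The ETS-type letters CCGGAA, in 12% of windows, were in none of the 8 windows, which says only that these letters are absent there. The windows of Tap1 and Psmb9, which are read in opposite directions, overlap and hold the same CCAAT and TGACG letters. A longer stretch is shown for H2-K1, a member with all 4 of the motifs found and, in these cells, the lowest level of the 10. The stretch is from the H2-K1 window with 2 CCAAT sites and ends before the site 6 bases from that start. Capitals mark, in order, the kB letters, AANNGAAA on the other strand, TGACG and ATTGG.
H2-K1 upstream (chr17:34000348-34000583, minus strand): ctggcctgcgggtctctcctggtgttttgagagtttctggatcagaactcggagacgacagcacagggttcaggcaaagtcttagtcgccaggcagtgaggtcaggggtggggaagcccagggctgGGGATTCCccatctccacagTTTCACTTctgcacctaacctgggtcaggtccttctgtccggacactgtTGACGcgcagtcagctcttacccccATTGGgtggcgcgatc

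On the build of the files (mm39), 8 members lie within 2.21 Mb of chromosome 17. Psmb9, Tap1, Psmb8 and Tap2 stand side by side in 34.3 kb from 34400961 to 34435295, Tapbp (chr17:34134873-34148266) and H2-K1 (chr17:34214991-34219321) precede them, and H2-D1 (chr17:35481706-35486475) and H2-T23 (chr17:36340665-36343747) follow. B2m is at chr2:121978167-121983564 and Nlrc5 at chr8:95160984-95253900. The gene bodies of Tap1 and Psmb9 share 212 bases on opposite strands, and B2m, Tap2 and H2-T23 each overlap a gene on the other strand. Whether the libraries kept the strand is not clear from the sources, so reads of such overlaps cannot be assigned to a strand.

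Library totals ran from 14301683 to 18607595 counts, and 14794 genes were tested. 18S ribosomal RNA took 2.92 to 4.89% of counts in ZsGreen libraries, 1.58 to 3.64% in ETV6 WT, 3.88 to 5.9% in P214L and 1.35 to 4.7% in I209S P214L libraries. Etv6 stood at 81.7 ± 5.03 CPM (TMM-scaled counts over the library's total) in control cells and 109 ± 11.4 CPM with ETV6 WT (SD, n = 3). The P214L libraries had 103 ± 4.64 CPM of it and the I209S P214L libraries 99.1 ± 12 CPM. How far reads of the construct are counted on this gene is not given in the sources used here. The label names pro-B cells, but of 11 pro-B markers 5 had no count in any library, among them Igll1 and Rag1, and the list summed to 6.69 to 16.1 CPM per library. Markers of macrophages summed to 36.4 to 41.1 CPM with ZsGreen, 131 to 146 CPM with ETV6 WT, 75.4 to 106 CPM in P214L cells and 101 to 139 CPM with I209S P214L. Of those 10 markers, C1qa, C1qb and Mertk were at 0 in every library. Most of the sum was Adgre1, which rose from 19.9 to 127 CPM with ETV6 WT, while Cd68 and Cd14 fell in the same comparison. Its part in the results below was not tested. Markers of dendritic cells summed to at most 1.32 CPM, of T and NK cells to at most 4.02 CPM and of fibroblasts to at most 0.508 CPM in any library. In such bulk libraries, fewer cells of a type and less RNA per cell cannot be told apart.

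Per length, B2m was by far the most abundant member. Its deposited FPKM was 465 ± 20.8 in ZsGreen cells, followed by Tap2 at 73.9 ± 3.21, H2-T23 at 44.2 ± 0.679 and Psmb8 at 38.8 ± 1.78. Tap1 (21.7 ± 1.5), Psmb9 (21.0 ± 3.31) and Tapbp (18.2 ± 1.41) were neighbours whose values lay within about their spread. H2-D1 stood at 11.04 ± 1.97, Nlrc5 at 2.39 ± 0.394 and H2-K1 at 0.119 ± 0.113 FPKM. With ETV6 WT, H2-T23 stood at 109 ± 5.79 FPKM, above Tap2 at 82.7 ± 2.72, and with I209S P214L the values were 109 ± 4.48 and 87.8 ± 3.44. H2-D1 also stood at a higher FPKM than Psmb9 in the ETV6 WT cells (23.5 ± 7.76 against 21.8 ± 0.435), a gap within its spread.

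ETV6 WT cells held more RNA of the heavy chains H2-D1 and H2-T23, the light chain, Tap1, tapasin and the activator Nlrc5 than control cells, and the immunoproteasome subunits were not called. Of the 10 members 6 were higher and 0 lower, where 37.7% of all genes tested were called, 19.5% as higher. The median log2 fold change was 0.61 over the members and 0.03 over all genes tested. With I209S P214L against ZsGreen, 7 members were higher and 0 lower (41.5% of all genes called, 20.8% as higher), with a median of 0.66. With P214L against ZsGreen, 0 of 10 members were called (5.08% of all genes), with a median of 0.04. In that comparison 0 members had an unadjusted p under 0.05 in edgeR, and DESeq2 and limma-voom also called 0. These 3 comparisons share the ZsGreen libraries. The joint test for differences between any of the 4 groups called 7 of the 10 members, against 41% of all genes.

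**Figure D1:**
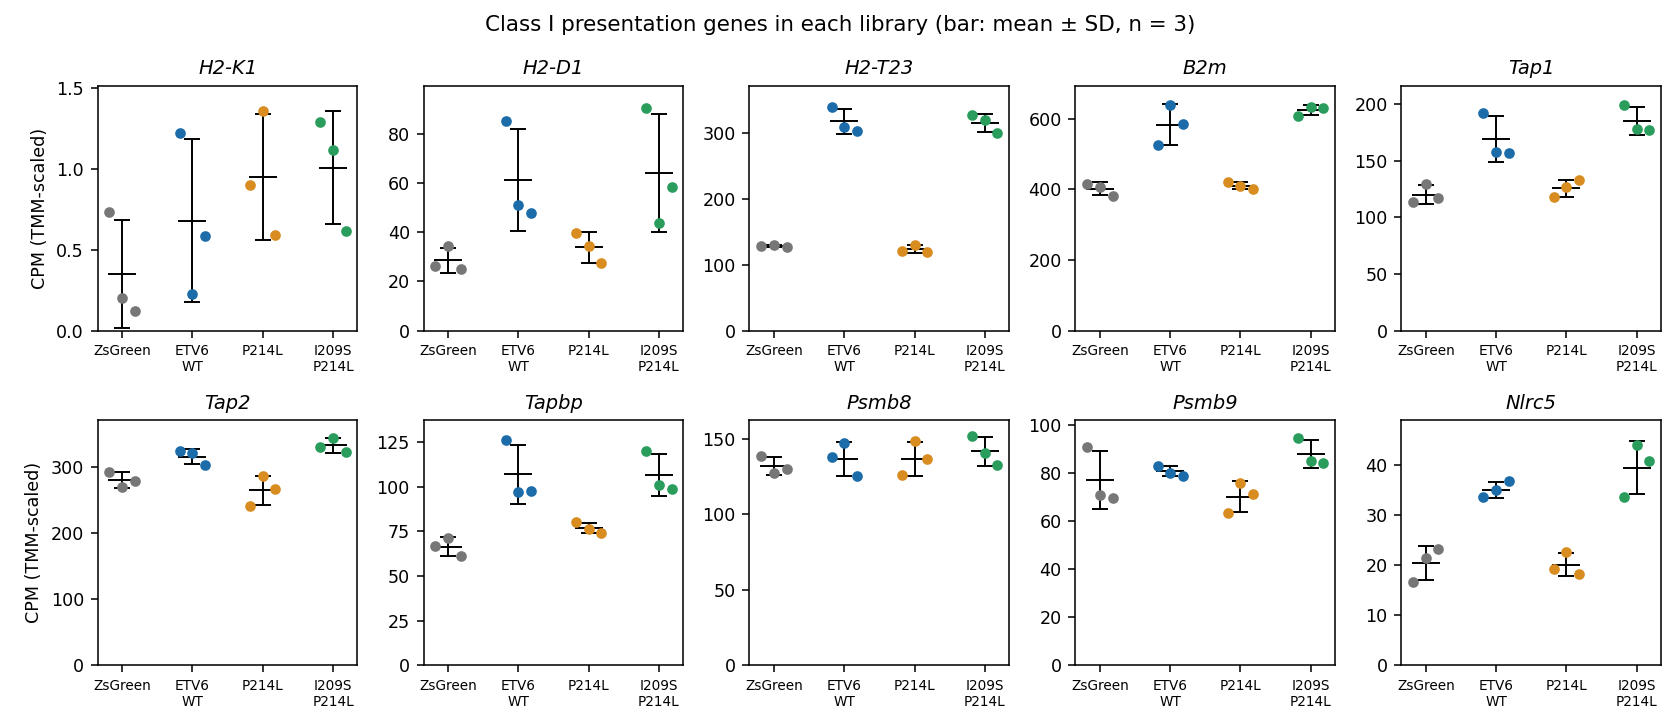
CPM of each member in each of the 12 libraries (points), with the mean and SD of the 3 libraries of a group (bars), on axes that start at 0. For H2-T23 the 6 libraries with ETV6 WT or I209S P214L lie between 300.4 and 339.5 CPM and the 6 others between 120.0 and 130.2 CPM, while the groups overlap for Psmb8.

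H2-T23, a non-classical heavy chain best known for presenting leader peptides of other class I molecules to an inhibitory receptor of natural killer cells, had the smallest adjusted p of the 10 members. It stood at 129, 130.2 and 126 CPM in the ZsGreen libraries and at 339.5, 309.8 and 304 CPM with ETV6 WT. It stood at 120.4, 130.2 and 120.0 CPM in P214L libraries and at 327, 320.1 and 300.4 CPM with I209S P214L. The libraries thus formed a low and a high set with no library between them, and the P214L libraries lay with the control. H2-T23 rose 2.47-fold in ETV6 WT cells (log2 fold change 1.30 ± 0.0659 SE, adjusted p = 6.78e-11) and by 1.30 with I209S P214L (adjusted p = 5.64e-11). With P214L the log2 fold change was -0.06 (adjusted p = 0.715).

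H2-D1, a classical heavy chain that presents peptides to CD8 T cells, was lower in level and more variable. Its CPM was 26.4, 34.5 and 25.02 in the ZsGreen libraries and 85.3, 51.2 and 47.7 with ETV6 WT. It was 39.8, 34.4 and 27.4 CPM in P214L cells and 90.6, 43.6 and 58.5 CPM with I209S P214L. The libraries ETV6 WT 1 and I209S P214L 1 were the highest of their groups, as they also were for Tap1 and Tapbp, and the ranges of the high and low groups did not overlap. H2-D1 rose in ETV6 WT cells (log2 fold change 1.10 ± 0.239 SE, adjusted p = 0.00127) and in I209S P214L cells (1.17, adjusted p = 0.000672), and stood at 0.24 with P214L (adjusted p = 0.663).

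H2-K1, the other classical heavy chain, was close to absent from the counts. Its 3 libraries summed to 18 counts with ZsGreen (95% Poisson interval 10.7 to 28.4), 35 with ETV6 WT (24.4 to 48.7), 45 with P214L (32.8 to 60.2) and 50 with I209S P214L (37.1 to 65.9). These intervals cover counting error only. Per library the level ran from 0.120 to 0.734 CPM with ZsGreen and from 0.228 to 1.22 CPM with ETV6 WT, so the groups overlapped. H2-K1 was not called in any of the 6 comparisons, and its log2 fold change of 0.91 with ETV6 WT had a 95% interval of -0.80 to 2.62. Without ZsGreen 1, the control library with the most H2-K1, the difference between I209S P214L and ZsGreen was called (2.60, adjusted p = 0.0349). H2 genes differ between mouse strains and share long stretches of sequence, the strain of the line is not given in the sources used here, and low expression and reads placed on another H2 gene or on none cannot be told apart. The counts of 20 class I H2 genes were therefore also summed in each library. The sum was 234 to 257.5 CPM with ZsGreen and 539.8 to 638.2 CPM with ETV6 WT. In P214L cells it was 230.5 to 259.6 CPM, and with I209S P214L 588.6 to 639.6 CPM. H2-K1 made up 0.0401 to 0.523% of it per library, so the sum mainly follows other H2 genes. H2-T23 alone held 129.1 of 236 CPM in ZsGreen 1 and 339.5 of 638.2 CPM in ETV6 WT 1. As a single feature in the fit, this sum rose by 1.26 on the log2 scale with ETV6 WT (adjusted p = 4.45e-10), and stood at 0.02 with P214L (adjusted p = 0.928).

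B2m, the light chain that every class I heavy chain needs to reach the surface, also rose. It stood at 416, 407 and 383 CPM in the ZsGreen libraries and at 525, 640.1 and 585 CPM with ETV6 WT. It stood at 421, 409 and 402 CPM in P214L libraries and at 608, 634 and 631 CPM with I209S P214L. All 6 libraries of the ETV6 WT and I209S P214L groups exceeded all 6 of the others. B2m rose 1.45-fold in ETV6 WT cells (log2 fold change 0.54 ± 0.0688 SE, adjusted p = 6.39e-06) and by 0.63 with I209S P214L (adjusted p = 7.48e-07), against 0.03 with P214L (adjusted p = 0.877). Within libraries there were 0.32 ± 0.0103 H2-T23 counts per B2m count with ZsGreen and 0.55 ± 0.0858 with ETV6 WT (SD, n = 3), with no overlap and an exact permutation p of 0.1, the smallest that 3 against 3 libraries can give.

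Tap1 and Tap2 form the peptide transporter together. Tap1 was called higher with ETV6 WT and with I209S P214L, Tap2 with I209S P214L. Tap1 stood at 113, 129 and 117 CPM with ZsGreen, 192, 157 and 156 CPM with ETV6 WT, 118, 126 and 132 CPM in P214L cells, and 199, 178 and 177 CPM with I209S P214L. Every ETV6 WT and I209S P214L library lay above every library of the other groups. Tap1 rose 1.41-fold in ETV6 WT cells (log2 fold change 0.49 ± 0.0866 SE, adjusted p = 0.00018) and by 0.63 with I209S P214L (adjusted p = 1.27e-05), against 0.07 with P214L (adjusted p = 0.742). Tap2 stood at 294, 270.0 and 279 CPM with ZsGreen, 324, 322 and 303 CPM with ETV6 WT, 242, 287 and 267 CPM in P214L cells, and 331, 345 and 323 CPM with I209S P214L. Its ETV6 WT libraries all exceeded the control libraries, by a margin that missed the threshold (log2 fold change 0.17 ± 0.0681 SE, adjusted p = 0.0559). DESeq2 (0.16, adjusted p = 0.0499), limma-voom (0.17, adjusted p = 0.0391) and scaling by library totals (0.20, adjusted p = 0.0309) placed it just past the threshold, and over all alternatives its adjusted p ran from 0.0309 to 0.219. Tap2 rose with I209S P214L (0.25, adjusted p = 0.00724). The ratio of Tap1 to Tap2 counts was 0.427 ± 0.0472 with ZsGreen and 0.532 ± 0.0534 with ETV6 WT, and did not overlap between the groups (exact permutation p = 0.1).

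Tapbp encodes tapasin, which holds the heavy chain near the transporter until a fitting peptide is bound. It stood at 66.5, 71.5 and 61.2 CPM with ZsGreen, 126, 96.9 and 97.4 CPM with ETV6 WT, 80.0, 76.4 and 74.1 CPM in P214L cells, and 119.7, 101 and 98.5 CPM with I209S P214L. Among the 10 members it was the only one for which the P214L libraries all lay above the control libraries, by a log2 fold change of 0.21 that was not called (adjusted p = 0.301). Tapbp rose 1.61-fold in ETV6 WT cells (log2 fold change 0.69 ± 0.103 SE, adjusted p = 3.84e-05) and by 0.68 with I209S P214L (adjusted p = 3.49e-05). It overlaps Zbtb22 on the same strand, so part of its reads may be shared.

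Nlrc5, the activator, rose from a low level. It stood at 16.6, 21.4 and 23.2 CPM with ZsGreen, 33.5, 34.9 and 36.8 CPM with ETV6 WT, 19.2, 22.7 and 18.3 CPM in P214L cells, and 33.6, 43.9 and 40.8 CPM with I209S P214L. The high and low groups did not overlap. Nlrc5 rose 1.72-fold in ETV6 WT cells (log2 fold change 0.78 ± 0.136 SE, adjusted p = 0.000167) and by 0.95 with I209S P214L (adjusted p = 1.94e-05), with -0.02 for P214L (adjusted p = 0.958).

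**Figure D2:**
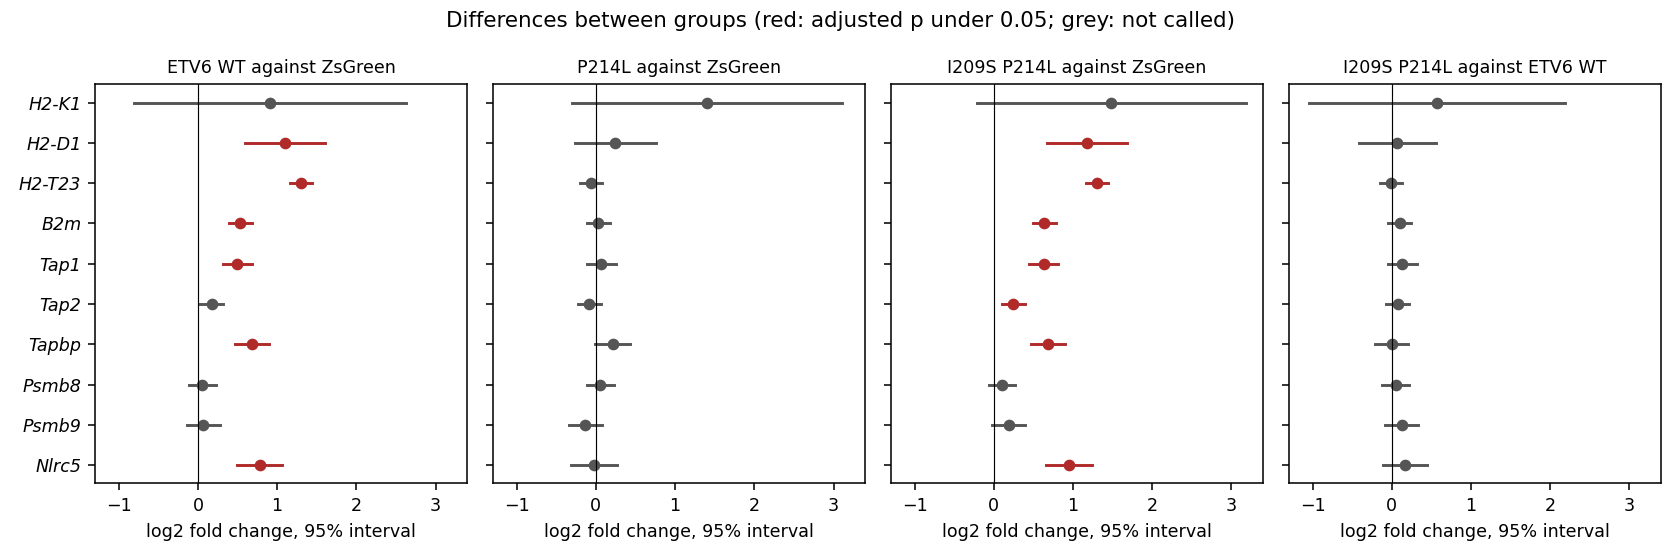
Log2 fold changes (x axis) of the 10 members in 4 comparisons, with 95% intervals from the edgeR fit; red marks an adjusted p under 0.05 and grey a gene not called. Red points stand in the panels of ETV6 WT and I209S P214L against ZsGreen, H2-T23 at 1.30 in both, and no point is red for P214L against ZsGreen or I209S P214L against ETV6 WT.

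The immunoproteasome subunits, whose genes flank Tap1, were not called with ETV6 WT or I209S P214L against ZsGreen. Psmb8, which takes the place of Psmb5, stood at 138, 127 and 130.0 CPM with ZsGreen and at 138, 147 and 125 CPM with ETV6 WT. It stood at 126, 148 and 136 CPM in P214L libraries and at 152, 140.4 and 133 CPM with I209S P214L, and all groups overlapped. Its log2 fold change with ETV6 WT was 0.05 (95% interval -0.12 to 0.22, adjusted p = 0.652). Psmb9, which takes the place of Psmb6, stood at 91.1, 70.8 and 69.7 CPM with ZsGreen, 83.2, 80.2 and 79.0 CPM with ETV6 WT, 63.3, 76.2 and 71.3 CPM in P214L cells, and 94.7, 85.1 and 84.3 CPM with I209S P214L. Its log2 fold change with ETV6 WT was 0.07 (95% interval -0.14 to 0.27, adjusted p = 0.651). ZsGreen 1 was the highest control library, and without it Psmb9 was called higher with I209S P214L than with ZsGreen (0.31, adjusted p = 0.0108).

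Ratios of counts within a library need no scaling between libraries. They were chosen after the values had been seen, 14 comparisons were made, and an exact two-sided permutation test of 3 against 3 libraries cannot go below 0.1. There were 1.58 ± 0.304 Tap1 counts per Psmb9 count with ZsGreen and 2.08 ± 0.195 with ETV6 WT (exact permutation p = 0.1, 0.14 after Benjamini-Hochberg adjustment, the values of every pair of groups below that does not overlap). The ratio was 1.79 ± 0.114 with P214L and 2.10, 2.10 and 2.10 in the 3 libraries with I209S P214L. Tap1 per Psmb8 was 0.911 ± 0.1 with ZsGreen and 1.24 ± 0.161 with ETV6 WT, with no overlap. Psmb9 per count of its standard counterpart Psmb6 was 0.753 ± 0.0944 with ZsGreen, 0.974 ± 0.0511 with ETV6 WT, 0.701 ± 0.0574 in P214L cells and 1.11 ± 0.0786 with I209S P214L. The Psmb9 to Psmb6 ratio did not overlap in either comparison. With ETV6 WT against ZsGreen the gene of this pair that was called was Psmb6, which fell from 102 to 83.2 CPM (log2 fold change -0.30, adjusted p = 0.00342). Psmb9 was not called, with a 95% interval of -0.14 to 0.27, so a part of it in the ratio was not tested. Psmb8 per Psmb5 was 3.75 ± 0.423 with ZsGreen and 3.82 ± 0.868 with ETV6 WT, and overlapped. Psmb10 per Psmb7, the third such pair, was 0.923 ± 0.0861 and 0.962 ± 0.111 and overlapped too.

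**Figure D3:**
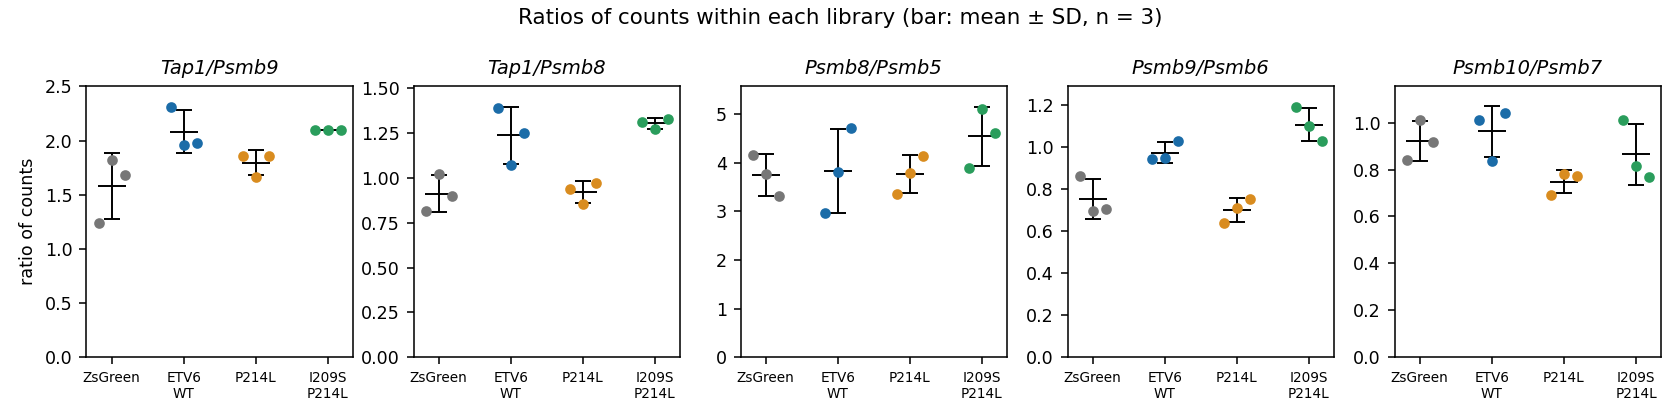
Ratio of the counts of 2 genes in each library (points; bars are the mean and SD of 3 libraries), on axes that start at 0. The Tap1 to Psmb9, Tap1 to Psmb8 and Psmb9 to Psmb6 ratios are higher in every ETV6 WT library than in every ZsGreen library, and the Psmb8 to Psmb5 and Psmb10 to Psmb7 ratios overlap.

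P214L cells had less RNA than ETV6 WT cells of most of these genes. Of the 10 members 7 were lower with P214L than with ETV6 WT and 0 higher, where 29.2% of all genes were called, 14.6% as lower. The median was -0.45 over the members and 0.00 over all genes tested. H2-T23 was lower by a log2 fold change of -1.36 (adjusted p = 4.43e-11), Nlrc5 by -0.80 (adjusted p = 0.000193), B2m by -0.51 (adjusted p = 1.95e-05), Tapbp by -0.47 (adjusted p = 0.00169) and Tap1 by -0.42 (adjusted p = 0.00105). H2-D1 was lower too (-0.86, adjusted p = 0.0105), but not called without ETV6 WT 1 (-0.55, adjusted p = 0.0701) or without P214L 3 (-0.72, adjusted p = 0.0638). Tap2 was lower (-0.25, adjusted p = 0.0084), but not called without P214L 1 (-0.18, adjusted p = 0.0846). Psmb8 (0.00), Psmb9 (-0.20) and H2-K1 (0.49) were not called.

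With the I209S change added to P214L, 8 of the 10 members were higher and 0 lower than with P214L alone (33% of all genes called, 15.9% as higher), with a median of 0.51 against 0.00 over all genes. H2-T23 rose by 1.35 (adjusted p = 4.15e-11), Nlrc5 by 0.97 (adjusted p = 2.19e-05), H2-D1 by 0.93 (adjusted p = 0.00541) and B2m by 0.60 (adjusted p = 2.07e-06). Without I209S P214L 1 the value of H2-D1 was 0.59 (adjusted p = 0.039). Tap1 rose by 0.56 (adjusted p = 6.57e-05), Tapbp by 0.47 (adjusted p = 0.00157) and Tap2 by 0.33 (adjusted p = 0.00104). Psmb9 rose by 0.32 (adjusted p = 0.0165), a call that was lost without P214L 1 (0.25, adjusted p = 0.109), without I209S P214L 1 (0.26, adjusted p = 0.0724), and without I209S P214L 1 and ETV6 WT 1 together (0.26, adjusted p = 0.0625). The values of Psmb8 (0.05) and H2-K1 (0.08) were not called. This comparison shares no library with that of ETV6 WT against ZsGreen.

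Between I209S P214L and ETV6 WT, 0 of the 10 members were called, where 5 of all 14794 genes were (0.0338%). No member had an unadjusted p under 0.05 in edgeR, and DESeq2 and limma-voom also called 0. A p that misses the threshold does not show equal levels, and the 95% intervals of the log2 difference of the fit without a replicate block say how large a difference the libraries allow. They ran from -0.14 to 0.13 for H2-T23, from -0.05 to 0.24 for B2m, from -0.05 to 0.31 for Tap1, from -0.07 to 0.22 for Tap2 and from -0.22 to 0.21 for Tapbp. For Psmb8 the interval was -0.12 to 0.22, for Psmb9 -0.08 to 0.33 and for Nlrc5 -0.11 to 0.45. The intervals were wide for H2-D1 (-0.42 to 0.56) and for H2-K1 (-1.04 to 2.19). Same-numbered samples of these groups deviated together clearly in pairs 1 and 3, and less so in pair 2. In all 3 pairs, 5 of the 10 members (H2-K1, Tap1, Tap2, Psmb9 and Nlrc5) were higher with I209S P214L, and 0 lower. The share of all genes that did so was not computed, so this count is not a result about the members. H2-K1 differed by only 0.068, 0.888 and 0.0288 CPM within pairs. Tap1 differed by 7.2, 20.8 and 20.7 CPM within pairs and Tap2 by 7, 23.3 and 20 CPM. With the number as a block, the log2 difference was 0.13 for Tap1 and 0.07 for Tap2, and every member had an adjusted p of 1.

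Other genes of the class I pathway, from a list of 55 of which 41 could be tested, did not move one way. With ETV6 WT against ZsGreen 9 were higher and 14 lower (37.7% of all genes called). With P214L 0 were higher and 2 lower (5.08% of all genes), and with I209S P214L 10 and 15 (41.5%). Of the other heavy chains, 20 were listed and 7 tested. H2-Q10, which is among the 9 and the 10 called higher above, passed the filter only through the groups where it is high. It could thus only be called as a rise, and its place in those counts is no support for one. Of the other 6, 3 rose with ETV6 WT (H2-T22, H2-T24 and H2-T10), 0 fell, and H2-Q1, H2-M3 and Mr1 were not called. Over all genes 19.5% were called higher. H2-T22, a non-classical heavy chain, stood at 43.2, 41.6 and 42.5 CPM with ZsGreen, 126, 116 and 107 CPM with ETV6 WT, 40.5, 53.3 and 39.4 CPM in P214L cells, and 132, 134 and 138 CPM with I209S P214L. It rose by a log2 fold change of 1.46 with ETV6 WT (adjusted p = 3.06e-09), with no library of the low groups near the high ones. H2-T24 rose from 15.7 to 45.3 CPM (1.54, adjusted p = 3.15e-06) and H2-T10 from 14.5 to 21.0 CPM (0.54, adjusted p = 0.0269). H2-Q10 had 0 counts in all ZsGreen and P214L libraries, 16 counts in the ETV6 WT libraries and 55 in the I209S P214L libraries. Against a floor of 3 counts over the ZsGreen libraries, that is at least 5.08-fold higher with ETV6 WT and at least 18.8-fold higher with I209S P214L. Given that filter, these values only describe H2-Q10 and are no test of a rise. Reads of all these genes may be shared with each other and with the members.

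Of the 7 other genes listed under loading and peptide trimming, 1 rose (Sppl3) and 4 fell with ETV6 WT. Sppl3 does not itself load or trim peptides. Over all genes 37.7% were called, 19.5% as higher. Canx, calnexin, which binds new heavy chains, fell from 490 to 387 CPM (log2 fold change -0.34, adjusted p = 0.000209). Pdia3, the disulfide isomerase of the loading complex, fell by 0.26 (adjusted p = 0.00213), the peptide-trimming enzyme Erap1 by 0.27 (adjusted p = 0.0148) and the general chaperone Hspa5 by 0.75 (adjusted p = 5.26e-08). Hspa5 also fell with P214L, by 0.38 (adjusted p = 0.00139). Calr, calreticulin, stood at -0.14 with ETV6 WT (adjusted p = 0.0992), and was called lower with I209S P214L against ZsGreen (-0.29, adjusted p = 0.00124). Tapbpl, a relative of tapasin, stood at 0.24 with ETV6 WT (adjusted p = 0.399). Of the proteasome genes outside the members, Psmb10, the remaining immunoproteasome subunit, fell by 0.27 (adjusted p = 0.0375), and so did the standard subunits Psmb6 and Psmb7. Of the 6 cytosolic peptidases, which destroy or trim peptides before transport, 4 fell and 1 rose, where 37.7% of all genes were called. Thop1 had the largest fall of that group, by 0.87.

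Among 13 transcription factors that act at class I genes, 3 rose and 2 fell with ETV6 WT, a share near the 37.7% of all genes called. Rela, a kB-binding subunit, rose from 113 to 155 CPM (log2 fold change 0.46, adjusted p = 0.00151) and Irf2 from 38.7 to 53.2 CPM (0.46, adjusted p = 0.000484). Nfkb1 fell by 0.44 and Nfyc, a subunit of the CCAAT-binding factor NF-Y, by 0.24. Irf1, an interferon-gamma induced activator of class I genes, stood at 15.8 and 16.0 CPM (0.01, adjusted p = 0.963), and Rfx5, a subunit of the X-box binding complex, at 33.3 and 33.4 CPM (0.00, adjusted p = 0.991).

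Interferon signalling genes were counted because interferons induce the class I genes. No count of Ifng, Ifnb1, Ifna1, Ifna2, Ifna4, Ifna5 or Ifnk was present in any of the 12 libraries, which allows up to 0.0601 CPM over the ZsGreen libraries and up to 0.0573 CPM over those with ETV6 WT. Ifne had 0 counts with ZsGreen, 11 with ETV6 WT, 3 in P214L cells and 11 with I209S P214L. Of 16 tested receptors, kinases and factors, 10 rose and 1 fell with ETV6 WT (37.7% of all genes called). With P214L 1 rose, the receptor chain Ifngr2, and 1 fell (5.08% of all genes), and with I209S P214L 10 rose and 1 fell (41.5%). Stat2, which is part of the interferon-stimulated factor together with Irf9, stood at 37.0, 40.0 and 38.0 CPM with ZsGreen, 72.8, 74.7 and 73.3 CPM with ETV6 WT, 41.5, 36.2 and 39.0 CPM in P214L cells, and 71.8, 77.3 and 74.3 CPM with I209S P214L. These libraries fell into the same low and high sets as those of H2-T23. Stat2 rose by 0.94 with ETV6 WT (adjusted p = 4.58e-08), and Irf9 rose from 33.5 to 58.5 CPM (0.80, adjusted p = 1.71e-06). Irf7 rose from 24.2 to 64.5 CPM (1.42, adjusted p = 7.51e-09). Its mean was 19.9 CPM in P214L cells and 65.9 CPM with I209S P214L. The receptor chains Ifnar1 (0.57), Ifnar2 (0.52) and Ifngr2 (0.45) rose with ETV6 WT, as did the kinases Jak2 (0.36) and Tyk2 (0.48). Jak1, another kinase on these receptors, fell by 0.27 (adjusted p = 0.0013).

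**Figure D4:**
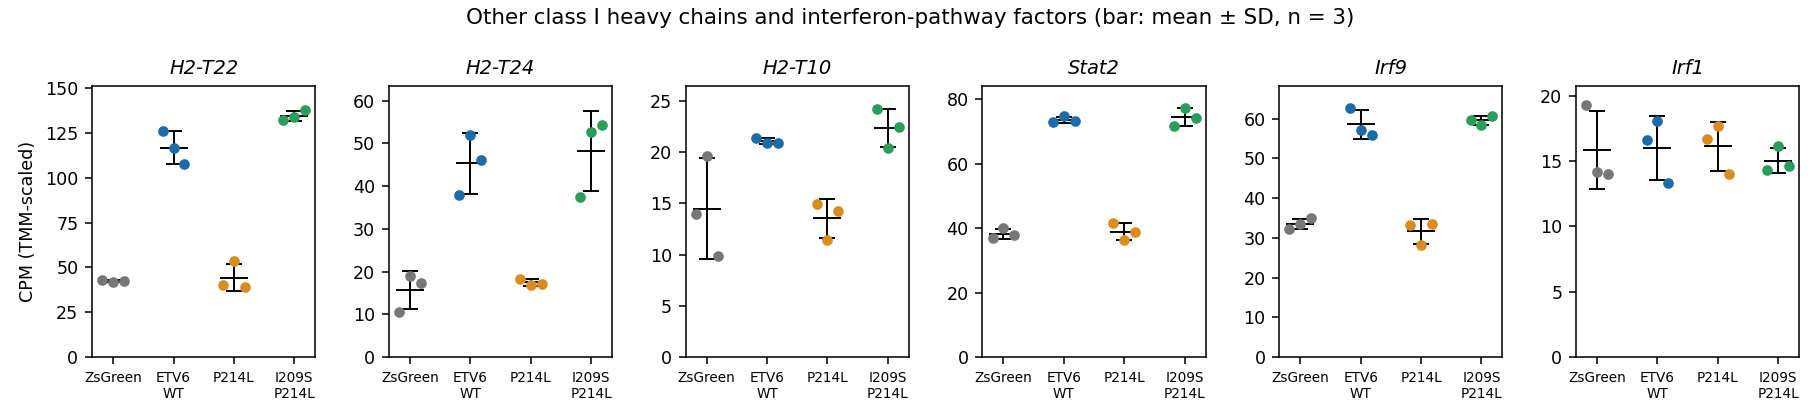
CPM of 3 other class I heavy chains and 3 interferon-pathway factors in each library (points; bars are the mean and SD of 3 libraries), on axes that start at 0. H2-T22, H2-T24, Stat2 and Irf9 are higher in every ETV6 WT and I209S P214L library than in every ZsGreen and P214L library, and Irf1 overlaps in all groups.

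MHC class II, which presents peptides from outside the cell, was measured beside class I. H2-Aa, H2-Ab1, H2-Eb1 and H2-Eb2 had no count in any library, and Ciita, the class II relative of Nlrc5, had 34 counts over all 12 libraries. Of 8 tested genes of that list, 2 rose with ETV6 WT and 0 fell, against 37.7% of all genes called. Ctss, the lysosomal protease cathepsin S, rose from 2.48 to 9.65 CPM (log2 fold change 1.96, adjusted p = 2.13e-05), and it also rose with P214L (1.01, adjusted p = 0.0476).

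Across the 12 libraries, Pearson's r of log2 CPM between H2-T23 and the other members was 0.951 for B2m, 0.935 for Nlrc5, 0.933 for Tap1, 0.908 for Tapbp, 0.883 for Tap2 and 0.84 for H2-D1. It was 0.648 for Psmb9, 0.316 for Psmb8 and 0.273 for H2-K1. The libraries fall into a low and a high set for most of these genes, so such values mainly restate the group means, and they are given as a description. Over all genes with a mean of at least 5 CPM, those most like H2-T23 were Ptk2b (0.998), Lgmn (0.997) and Jade2 (0.997), those most like B2m began with Zadh2 (0.984), and those most like Tap1 with Pink1 (0.98). The gene most like Nlrc5 was Maml3 (0.986), most like Tapbp was Zfp316 (0.986) and most like H2-D1 was Saraf (0.978). For Psmb9 they were Ash2l (0.925), H2-DMa (0.909) and Trmt12 (0.904), and for Psmb8 the highest was Csnk1g3 (0.889).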

How the data were processed

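Per the submitters' processing notes, reads were aligned with HISAT2 2.0.5 to mm39 and counted with featureCounts 1.5.0-p3. Per the file headers, the deposited table gives for each gene and library a raw read count and an FPKM, with gene length in bases and position. The annotation release and strandedness are not given in the sources used here. The test of the counts was edgeR's quasi-likelihood test (edgeR 4.0.16, R 4.3.3), after TMM scaling and the filterByExpr filter, in a single fit of the 12 libraries that gave each group its own mean. P-values were adjusted by Benjamini-Hochberg over the 14794 genes that passed, a gene was called under 0.05, and edgeR is meant unless another tool is named. CPM are the scaled counts. Correlations used log2 CPM with a prior count of 2. The fit was tested on simulated data with 200 changed genes.

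The members and lists were chosen with earlier results of these data known. All 10 members are named in every comparison. Of other lists, genes called in ETV6 WT against ZsGreen or with the smallest adjusted p-values were eligible, besides some that were always followed. Alternatives were DESeq2 1.42.0, limma-voom (limma 3.58.1), other scalings, no filter, only the groups compared, a replicate block, and libraries left out. Replicate numbers are taken from the sample titles. In I209S P214L against ETV6 WT, deviations of same-numbered samples correlated at 0.676, 0.151 and 0.436 over 10106 genes. Samples of unequal numbers reached 0.267 there, so pairs 1 and 3 stood above these and pair 2 did not. In the other comparisons same-numbered samples reached at most 0.163.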

Additional observations from a re-analysis of the deposited data

How the results depend on the processing

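The number of members called stayed within 1.5 times in all 139 recomputed counts. It ran from 6 to 7 for ETV6 WT against ZsGreen, 7 to 9 for I209S P214L against ZsGreen, 6 to 7 for P214L against ETV6 WT, 7 to 8 for I209S P214L against P214L and 7 to 8 for any difference, and was 0 throughout for the other comparisons. With the replicate number as a block, the counts were 6, 7, 7, 8, 7, 0 and 0 in this order. In the comparisons other than I209S P214L against ETV6 WT, same-numbered samples correlated at -0.0932 to 0.163, so little pairing by number was seen there. Of the called values, 6 recomputed ones, of H2-D1, Tap2 and Psmb9, lost their call, as given in the report.

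Of 1241 recomputed values of single members, 44 changed sign, none of them of a value called in the reported fit; outside H2-K1 these reached at most 0.2516 in size, for H2-D1 without I209S P214L 1. For Psmb8 in P214L against ETV6 WT the log2 fold change was 0.0000 with RLE scaling, -0.0264 with library totals and -0.006 without the filter, and with libraries left out it ran from -0.0569 to 0.068. In I209S P214L against ETV6 WT, H2-T23 stood at 0.0028 with RLE, 0.0026 with DESeq2 and 0.0171 without ETV6 WT 1 and I209S P214L 1, and from -0.0392 to 0.0392 with 1 library left out. Tapbp stood there at 0.0079 with RLE, 0.005 with library totals, 0.0076 with DESeq2, 0.0106 with limma-voom, 0.0034 with only these groups and 0.0387 without that pair, and from -0.0886 to 0.1292 with 1 library left out. H2-D1 ran there from -0.2516 to 0.3785 and Psmb8 from -0.0102 to 0.1031. In I209S P214L against P214L without that pair, H2-K1 stood at -0.1463 and Psmb8 at -0.0077, and with 1 library left out they ran from -0.1715 to 0.4318 and from -0.0147 to 0.1105. In ETV6 WT against ZsGreen Psmb9 ran from -0.0193 to 0.1861 and Psmb8 from -0.0004 to 0.1032. In P214L against ZsGreen Nlrc5 ran from -0.1614 to 0.0711, B2m from -0.012 to 0.048 and Psmb8 from -0.0178 to 0.1081. The cause was not tested. H2-K1 had only 18 to 50 counts per group.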
